A study of Mus musculus with 14 samples.

Results

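The mouse Hox genes were followed through a chemical conversion of embryonic fibroblasts and set beside primary retinal pigment epithelium. Every row of the mouse count table was taken whose symbol is Hox, a cluster letter from a to d and a paralog number. This gave 39 of 55291 gene symbols: 11 in the Hoxa cluster, 10 in Hoxb, 9 in Hoxc and 9 in Hoxd. The other Hox-cluster transcripts in the table, which are non-coding RNAs, are not members.

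Hox genes encode homeodomain transcription factors that give cells their position along the head-to-tail axis of the embryo. Within a cluster, genes at the 3′ end have low paralog numbers and are switched on first, reaching forward to the hindbrain and neck, while genes at the 5′ end have high numbers and are kept to the hind trunk, the tail and the outer limb. Cultured fibroblasts are known to keep the Hox genes of the body site they came from. The eye and forebrain form in front of the Hox domain, and the retinal pigment epithelium is known as a tissue without Hox expression.

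Total RNA was sequenced from 14 libraries, all labelled C57BL/6J. Mouse embryonic fibroblasts (MEF, 3 libraries) were the starting cells, taken from E13.5 embryos. Cells on day 7 (D7, 3 libraries) and day 18 (D18, 3 libraries) were in M7 reprogramming medium. This medium contained bFGF and inhibitors of BMP receptors (LDN193189), TGF-beta receptors (A 83-01), DNA methyltransferases (RG108), IKK (BMS-345541) and casein kinase (CKI-7). It also held CHIR-99021, which blocks GSK3, and Hh-Ag1.5, which activates Smoothened. Cells on day 32 (D32, 3 libraries) had been moved to M3 differentiation and maturation medium, which contained the ROCK inhibitor Y27632, nicotinamide, retinoic acid and activin A. Primary retinal pigment epithelium (P-RPE, 2 libraries), the pigmented layer behind the photoreceptors, had no treatment. Cells that looked successfully induced were scraped for RNA, so the treated groups describe chosen areas of the cultures. No untreated culture of the same days is among the libraries. Medium, time in culture and the choice of areas therefore cannot be told apart. The labels give MEF the M7 medium as treatment and give P-RPE the same embryonic tissue as the other libraries, and neither entry was used for grouping. Nothing in them ties a replicate to its own culture or animal, and each p therefore measures only the spread between these libraries.

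Library totals ran from 32352405 to 41390196 counts, and 1 count was worth 0.0227 to 0.0304 on the CPM scale, which divides counts by the scaled library size. The summed level of 10 fibroblast markers was 1042 to 1336 CPM in P-RPE and 23940 to 25160 CPM in MEF. Over 10 pigment epithelium markers the libraries summed to 0.766 to 1.34 CPM in MEF and to 2.47 to 4.07 CPM at D7. The D18 libraries had 7.34 to 9.18 CPM of them, the D32 libraries 4379 to 8410 CPM and the P-RPE libraries 57040 to 64080 CPM. The D32 libraries also held 17530 to 26810 CPM of the fibroblast markers. The P-RPE libraries held 1049 to 1274 CPM of 10 endothelial markers and 1342 to 1457 CPM of 10 macrophage markers. They also held 930.3 to 2616 CPM of 9 rod photoreceptor markers and 974.5 to 1780 CPM of 9 red cell markers. Because RNA came from whole samples, fewer cells that express a gene and less of its RNA per cell cannot be told apart.

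On the GRCm38 build, Hoxa lies on chromosome 6 from 52155590 to 52260880, Hoxb on chromosome 11 from 96194316 to 96368256, Hoxc on chromosome 15 from 102921103 to 103036852 and Hoxd on chromosome 2 from 74668310 to 74765142. In 10 of the 39 genes more than 10% of the exonic bases also belonged to another annotated gene. The share was 62.9% in Hoxd3, 52.9% in Hoxb3, 52.3% in Hoxd4, 35.0% in Hoxa11, 27.3% in Hoxb2, 27.1% in Hoxa3, 20.4% in Hoxa7, 16% in Hoxa4, 15.04% in Hoxa2 and 10.8% in Hoxd11. How overlapping reads were assigned, and whether strand was used, is not given in the sources used here, and the values of these 10 genes are uncertain for that reason. Hoxd3 and Hoxd4 share exonic bases with each other, so their values may not be independent.

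The clusters also carry microRNA genes. The mature sequences of the miR-10 and miR-196 families are shown because members in different clusters share a seed. They are given here with RefSeq sequences on GRCm38.p6, and capitals mark the seed, bases 2 to 8, which pairs with target messages. All 5 of the 5 loci looked up were matched. The miR-10a gene lies upstream of Hoxb4 at chr11:96317186-96317208 on the plus strand and miR-10b within the Hoxd4 and Hoxd3 transcription units at chr2:74726074-74726096 on the plus strand. The miR-196a sequence is encoded at both chr11:96265187-96265208 and chr15:102973365-102973386 on the plus strand, and miR-196b within the Hoxa9 gene at chr6:52230129-52230150 on the minus strand.
miR-10a-5p: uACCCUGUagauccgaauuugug
miR-10b-5p: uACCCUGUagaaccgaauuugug
miR-196a-5p: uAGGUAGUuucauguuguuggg
miR-196b-5p: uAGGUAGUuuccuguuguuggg
The miR-10 members share the seed ACCCUGU and the miR-196 members share AGGUAGU. Of the 5 precursor genes, Mir196a-1 was the one with enough counts for a test. It had 0.427 to 0.562 CPM at D18, against 0.822 to 1.67 CPM in MEF, and fell (log2 change -1.26, SE 0.42, adjusted p = 0.0155, Benjamini-Hochberg over all tested genes in edgeR's quasi-likelihood test). Counts on a precursor row of a total RNA library do not measure the mature microRNA.

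A pair of promoters is shown because their genes lie at different places in the Hoxd cluster and moved in opposite directions in the first medium. Each is the 250 bases before the gene's start in RefSeq on GRCm38.p6, with CG dinucleotides in capitals: chr2:74667975-74668224 on the plus strand for Hoxd13, at the 5′ end of the cluster, and chr2:74704365-74704614 on the plus strand for Hoxd8, in its middle.
Hoxd13: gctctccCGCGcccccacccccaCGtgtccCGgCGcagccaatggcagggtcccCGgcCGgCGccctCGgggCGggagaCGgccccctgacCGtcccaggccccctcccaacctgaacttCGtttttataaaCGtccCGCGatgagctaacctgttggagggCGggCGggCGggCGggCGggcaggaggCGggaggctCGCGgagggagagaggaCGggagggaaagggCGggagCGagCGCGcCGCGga
Hoxd8: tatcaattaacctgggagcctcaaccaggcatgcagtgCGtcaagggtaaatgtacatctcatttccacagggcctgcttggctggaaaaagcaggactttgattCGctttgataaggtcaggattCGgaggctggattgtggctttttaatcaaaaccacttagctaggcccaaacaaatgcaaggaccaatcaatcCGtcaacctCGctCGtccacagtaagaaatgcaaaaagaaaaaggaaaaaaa
The Hoxd13 window held 31 CG dinucleotides at 74.4% G and C, and 5.19% of 32851 promoters of this length held as many or more. The Hoxd8 window held 6 at 44.4% G and C, the median of all promoters, and 50.35% held as many or more. The letters TATAAA, searched on both strands, were found in the Hoxd13 window and not in the Hoxd8 window, and 12.37% of all promoters held them. Over the 24 promoters of the 22 Hox genes in the RefSeq table, CG dinucleotides ranged from 2 to 35 with a median of 12.5, and 4 windows held TATAAA. These are descriptions of the sequence and draw nothing about methylation or factor binding in these cells.

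The fibroblasts started with a broad Hox profile centred on the middle of the clusters. To compare genes, levels were divided by exonic length and are given as CPM per kb. The highest mean level in MEF was that of Hoxb9, a gene of the hind trunk, with 26.8 CPM per kb. It was followed by Hoxa5 and Hoxc6, genes of the neck and chest region, with 20.3 CPM per kb each, and by Hoxb6 with 15.1. Between 33 and 34 of the 39 genes had at least 1 CPM in each MEF library. The 15 genes with paralog numbers 4 to 8 supplied 61.5% to 63.6% of the summed level, the 16 with numbers 9 to 13 supplied 31.7% to 33.6% and the 8 with numbers 1 to 3 supplied 4.59% to 4.87%. The Hoxd cluster was the weakest, with 5.27% to 5.70% of the sum.

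**Figure D1:**
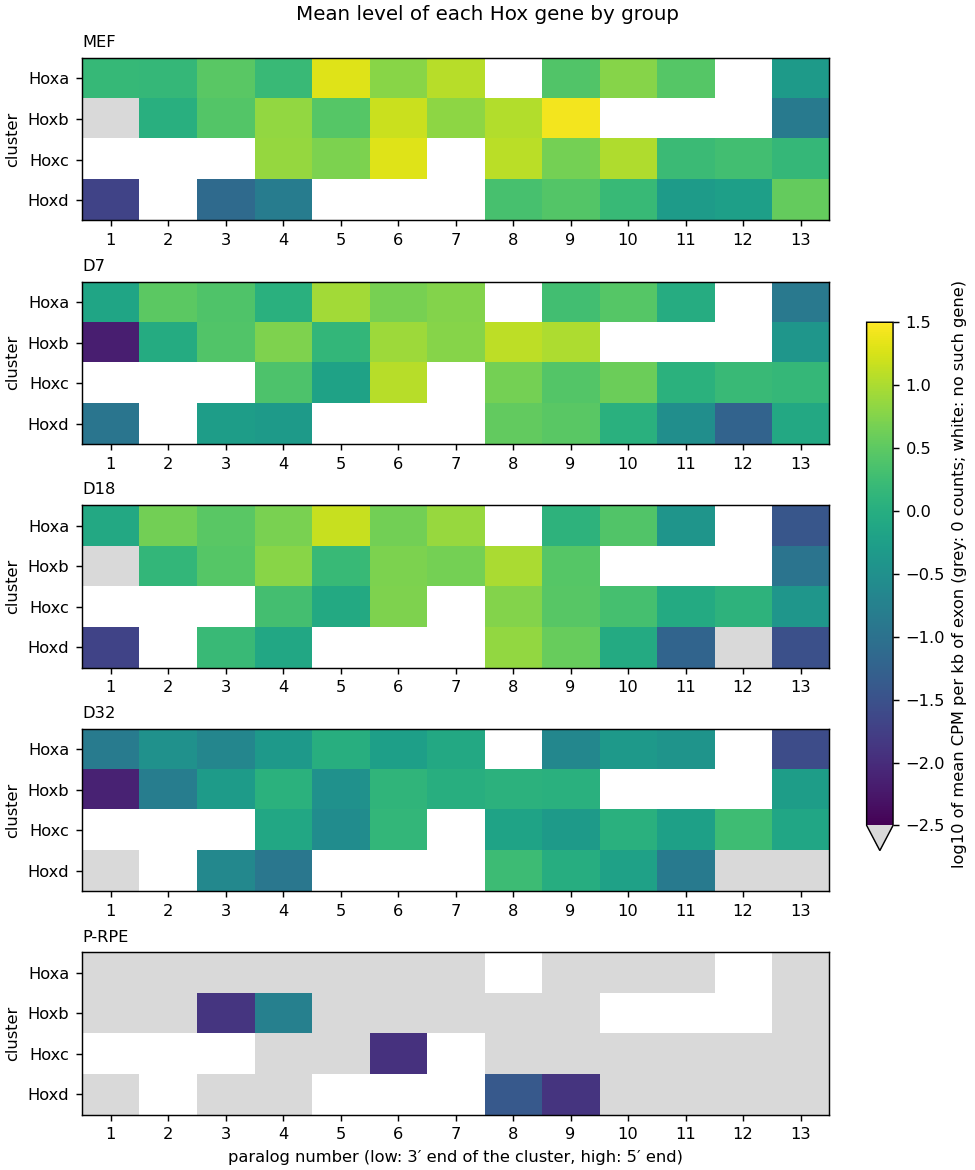
Mean level of each of the 39 Hox genes in MEF, D7, D18, D32 and P-RPE, as the log10 of CPM per kb of exon, with clusters as lines, paralog numbers from 1 to 13 as columns, grey for 0 counts and white where a cluster has no such gene. In P-RPE 34 of the 39 squares are grey, and at D18 the Hoxd12 square is grey.

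The summed Hox level was lower in every treated library than in every MEF library. The MEF libraries had 209.1, 210.8 and 202.3 CPM per kb. Later it was 127.6, 129.6 and 103.8 CPM per kb in the D7 libraries, 103.1, 112.5 and 126.6 CPM per kb in those of D18 and 24.15, 22.49 and 24.01 CPM per kb in those of D32. The P-RPE libraries had 0.262 and 0.244 CPM per kb. The D7 and D18 libraries overlapped, while the D32 libraries lay far below both. The D7 mean was 58.0% of the MEF mean, the D18 mean 55.0%, the D32 mean 11.4% and the P-RPE mean 0.122%. The mix of genes moved as well. The mean paralog number, weighted by level, lay between 7.09 and 7.17 in MEF and between 6.86 and 6.995 at D7. For D18 it lay between 6.11 and 6.46, and for D32 between 7.63 and 7.72. It was thus shifted to the 3′ end at D18 and to the 5′ end at D32, with no overlap between these 4 groups. The 10 genes with over 10% of their exonic bases shared enter this mean, and many of them have low paralog numbers. The mean was not computed without them, which leaves the size of these shifts uncertain. These sums are descriptions and were not tested.

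**Figure D2:**
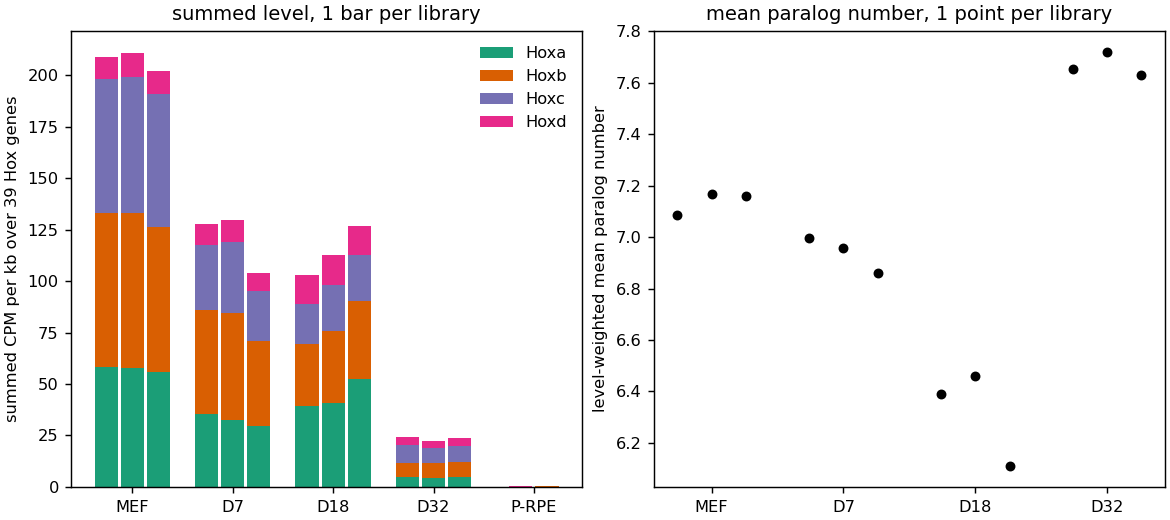
Left, summed CPM per kb over the 39 Hox genes, with 1 bar per library in MEF, D7, D18, D32 and P-RPE and colours for the 4 clusters. Right, the level-weighted mean paralog number of each library in MEF, D7, D18 and D32, where the D18 points lie lowest, from 6.11 to 6.46, and the D32 points highest, from 7.63 to 7.72.

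The first comparison sets cells after a week in the first medium against the starting fibroblasts. More Hox genes fell than rose: of the 37 tested genes 3 rose, 17 fell and 17 did not pass at D7 against MEF. The background over all 20562 tested genes was 28.5% higher and 26.5% lower. The median log2 change was -0.61 over the Hox genes and 0.04 over all genes. The genes that rose were Hoxd3, Hoxd4 and Hoxa2, all from the 3′ part of their clusters, while none of the 16 genes with numbers 9 to 13 rose and 8 of them fell. With library totals as the only scaling, the Hox split was 5 higher and 14 lower. All 3 genes that rose have over 10% of their exonic bases shared with another gene, and among the 27 tested genes without such overlap 0 rose and 15 fell.

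Hoxd3, a gene of the hindbrain and neck, had 2.33, 3.07 and 1.29 CPM at D7, against 0.335, 0.277 and 0.340 CPM in MEF. Its groups did not overlap. Hoxd4, its neighbour, which shares exonic bases with Hoxd3, had 1.49, 1.64 and 1.06 CPM at D7, against 0.396, 0.387 and 0.567 CPM in MEF. Hoxa2, which in the mouse sets the identity of the second branchial arch and hindbrain segments, had 5.81, 6.00 and 4.47 CPM at D7, against 2.71, 2.21 and 2.72 CPM in MEF. In both genes each D7 library lay above each MEF library. The log2 changes were 2.80 (SE 0.39) for Hoxd3, 1.62 (SE 0.36) for Hoxd4 and 1.09 (SE 0.23) for Hoxa2, with adjusted p of 3.15e-05, 0.00140 and 0.00124 in edgeR.

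Hoxd12 and Hoxd13, which pattern the outer limb and the digits, were among those with the largest falls. Hoxd12 had 0.217, 0.0908 and 0.141 CPM at D7, against 1.77, 1.66 and 0.964 CPM in MEF. Hoxd13 had 2.55, 2.20 and 1.41 CPM at D7, against 9.44, 8.63 and 9.07 CPM in MEF. Hoxc5, from the middle of the Hoxc cluster, had 1.57, 2.38 and 1.98 CPM at D7, against 15.9, 16.2 and 15.8 CPM in MEF. For each of these genes all D7 libraries were below all MEF libraries, and the Hoxc5 libraries lay closest together within their group. Changes on the log2 scale were -3.28 (SE 0.58) for Hoxd12, -2.14 (SE 0.37) for Hoxd13 and -3.01 (SE 0.25) for Hoxc5, with adjusted p of 0.000782, 0.000334 and 1.87e-07 in edgeR. The other 14 genes that fell had log2 changes from -1.82 in Hoxa13 to -0.80 in Hoxc9.

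The calls were also counted by cluster. Of all tested genes 28.5% rose and 26.5% fell at D7 against MEF. At D7 against MEF 6 of 9 Hoxc genes fell and 0 rose, 6 of 11 Hoxa genes fell and 1 rose, 3 of 9 tested Hoxb genes fell and 0 rose, and in Hoxd 2 of 8 fell and 2 rose. Hoxb8, a gene of the trunk, did not pass. It had 35.8, 36.3 and 27.8 CPM at D7, against 31.1, 28.5 and 26.4 CPM in MEF, and was the Hox gene with the highest level per kb at D7. Its neighbour Hoxb9 had 26.9, 29.1 and 23.3 CPM at D7, against 67.8, 71.6 and 67.5 CPM in MEF, and fell (log2 change -1.38, SE 0.18, adjusted p = 1.61e-05, edgeR). No test of the difference between clusters or between neighbours was made.

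Regulators that switch on Hox genes in the embryo were looked at beside this comparison. Of 9 such genes 6 were tested, and at D7 against MEF 5 rose, 0 fell and 1 did not pass, against 28.5% and 26.5% of all tested genes that rose and fell. Egr2, which in the mouse hindbrain activates Hoxa2 and Hoxb2, had 44.2 ± 1.39 CPM at D7 and 4.00 ± 0.114 CPM in MEF (SD, n = 3 each; log2 change 3.46, SE 0.30, adjusted p = 3.07e-07, edgeR). Hoxb2, with a log2 change of -0.22, did not pass.

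From day 7 to day 18, in the same medium, more Hox genes did not pass than changed, and the summed levels of the groups overlapped. Of the 37 tested genes 5 rose, 9 fell and 23 did not pass at D18 against D7, where 29.2% of all tested genes rose and 27.4% fell. The median log2 change was -0.14 over the Hox genes and 0 over all genes. All 5 that rose (Hoxd3, Hoxa4, Hoxa5, Hoxa7 and Hoxd8) have paralog numbers from 3 to 8. Of the 9 that fell, 7 have numbers from 9 to 13, and the others were Hoxb6 and Hoxc6. By class, 1 of 6 tested genes with numbers 1 to 3 rose and 0 fell, 4 of 15 with numbers 4 to 8 rose and 2 fell, and 0 of 16 with numbers 9 to 13 rose and 7 fell. The difference between the classes was not tested. With library totals as the only scaling the split was 4 higher and 14 lower. Of the 5 genes that rose, Hoxd3, Hoxa4 and Hoxa7 overlap other genes, and Hoxa5 and Hoxd8 do not by more than 10%.

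Hoxa4, a gene of the neck region, had 6.99, 7.17 and 9.57 CPM at D18, against 1.79, 1.52 and 1.84 CPM at D7. Hoxd3 had 5.59, 5.52 and 8.97 CPM at D18, against 2.33, 3.07 and 1.29 CPM at D7. Hoxd8, which shares no exonic bases with another gene, had 22.3, 20.4 and 15.8 CPM at D18, against 9.97, 9.52 and 8.68 CPM at D7. In all 3 genes the D18 libraries stood above the D7 libraries without overlap. The log2 changes were 2.20 (SE 0.25) for Hoxa4, 1.58 (SE 0.33) for Hoxd3 and 1.05 (SE 0.26) for Hoxd8, with adjusted p of 4.73e-06, 0.000932 and 0.00312 in edgeR.

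Among the genes of the 5′ end, Hoxd13 had 0, 4 and 4 counts at D18, against 94, 97 and 60 counts at D7. Hoxd12 had 0 counts in all D18 libraries, against 8, 4 and 6 counts at D7, at least 5.26-fold lower with the floor set at 3 counts summed over the D18 libraries. In both genes every D18 library was below every D7 library. Hoxd11 had 0.393, 0.267 and 0.114 CPM at D18, against 1.41, 1.499 and 0.894 CPM at D7. Hoxb9 had 5.34, 8.51 and 7.49 CPM at D18, against 26.9, 29.1 and 23.3 CPM at D7. In these genes, too, the groups did not overlap. On the log2 scale the changes were -4.74 (SE 0.53) for Hoxd13, -2.28 (SE 0.46) for Hoxd11 and -1.89 (SE 0.19) for Hoxb9, with adjusted p of 9.71e-06, 0.000747 and 1.14e-06 in edgeR.

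Set against the fibroblasts, the day 18 cells had an uneven profile along the paralog numbers. Of the 37 tested genes 5 rose, 23 fell and 9 did not pass at D18 against MEF, where 37.4% of all tested genes rose and 32.7% fell. The median log2 change was -0.83 over the Hox genes and 0.11 over all genes. Of the 16 genes with numbers 9 to 13, 0 rose and 13 fell, with a median log2 change of -1.53. Of the 15 with numbers 4 to 8, 3 rose and 9 fell, with a median of -0.55. Of the 6 tested genes with numbers 1 to 3, 2 rose and 1 fell, with a median of 0.23. The summed level at D18, as a share of the MEF mean, was 54.5% for paralog group 1, 231% for group 2, 129% for group 3, 85.8% for group 4, 60.2% for group 5, 36.0% for group 6, 67.3% for group 7 and 89.7% for group 8. It was 28.9% for group 9, 30.5% for group 10, 26.6% for group 11, 48.9% for group 12 and 10.1% for group 13, so the levels did not follow the paralog number in an even order. Every gene of groups 2 and 3 has over 10% of its exonic bases shared with another gene, which leaves the shares of those groups uncertain. The groups of members were compared by counts only, and the difference between them was not tested.

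**Figure D3:**
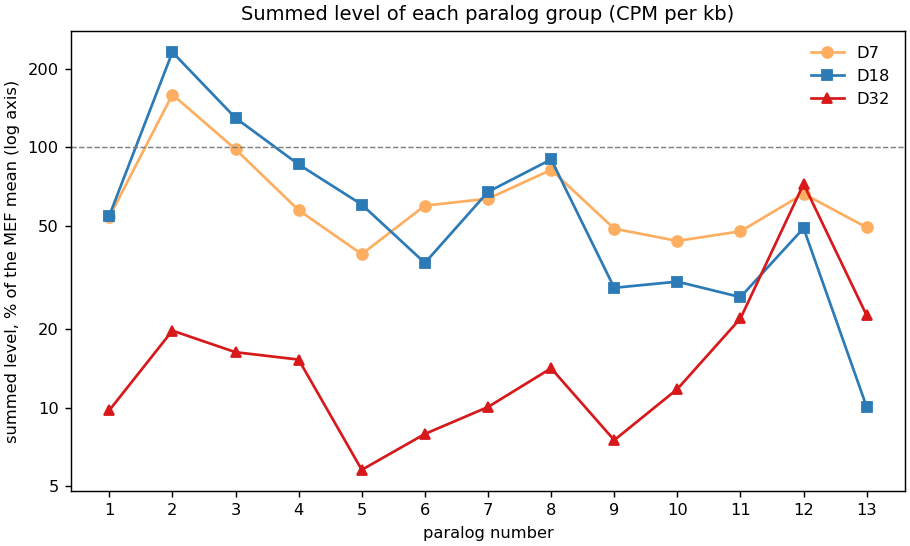
Summed level of each paralog group, in CPM per kb, at D7, D18 and D32 as a percentage of its MEF mean on a log axis, against the paralog number from 1 to 13. The D18 line lies at 231% for group 2 and at 10.1% for group 13, and the D32 line lies between 5.79% for group 5 and 72.2% for group 12. Every gene of groups 2 and 3 shares over 10% of its exonic bases with another gene.

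The 5 genes that rose between MEF and day 18 were Hoxd3, Hoxd4, Hoxd8, Hoxa2 and Hoxa4. Hoxd3 had 5.59, 5.52 and 8.97 CPM at D18, against 0.335, 0.277 and 0.340 CPM in MEF. Hoxd4 had 2.19, 1.97 and 2.73 CPM at D18, against 0.396, 0.387 and 0.567 CPM in MEF. Hoxd8 had 22.3, 20.4 and 15.8 CPM at D18, against 5.57, 6.94 and 5.42 CPM in MEF. Each D18 library was above each MEF library in these 3 Hoxd genes. Hoxa2 and Hoxa4, with log2 changes of 1.61 and 1.63, also rose without overlap. The log2 changes were 4.39 (SE 0.40) for Hoxd3, 2.34 (SE 0.36) for Hoxd4 and 1.71 (SE 0.27) for Hoxd8, with adjusted p of 1.93e-07, 3.86e-05 and 4.22e-05 in edgeR. Hoxd3 and Hoxd4 share exonic bases with each other, so their rises may not be independent. Hoxd8 is the only 1 of the 5 with no more than 10% of its exonic bases shared with another gene. Among the 27 tested genes below that limit 1 rose and 20 fell.

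The same cluster held the largest falls. Hoxd13 had 0, 4 and 4 counts at D18, against 310, 312 and 320 counts in MEF. Hoxd12 had 0 counts in all D18 libraries, against 58, 60 and 34 counts in MEF, at least 52.6-fold lower. Hoxa13, a gene of the digits and the hindgut, had 6, 4 and 0 counts at D18, against 31, 46 and 46 counts in MEF. For these genes every MEF library was above every D18 library. The log2 changes were -6.87 (SE 0.52) for Hoxd13 and -3.62 (SE 0.79) for Hoxa13, with adjusted p of 1.46e-07 and 0.000962 in edgeR. Hoxc5, with a log2 change of -2.62, was the member from numbers 4 to 8 that fell most. Within Hoxd, the series from Hoxd13 through Hoxd11 and Hoxd10 to Hoxd9 and Hoxd8 had log2 changes of -6.87, -3.01, -0.85, 0.48 and 1.71, of which that of Hoxd9 did not pass.

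**Figure D4:**
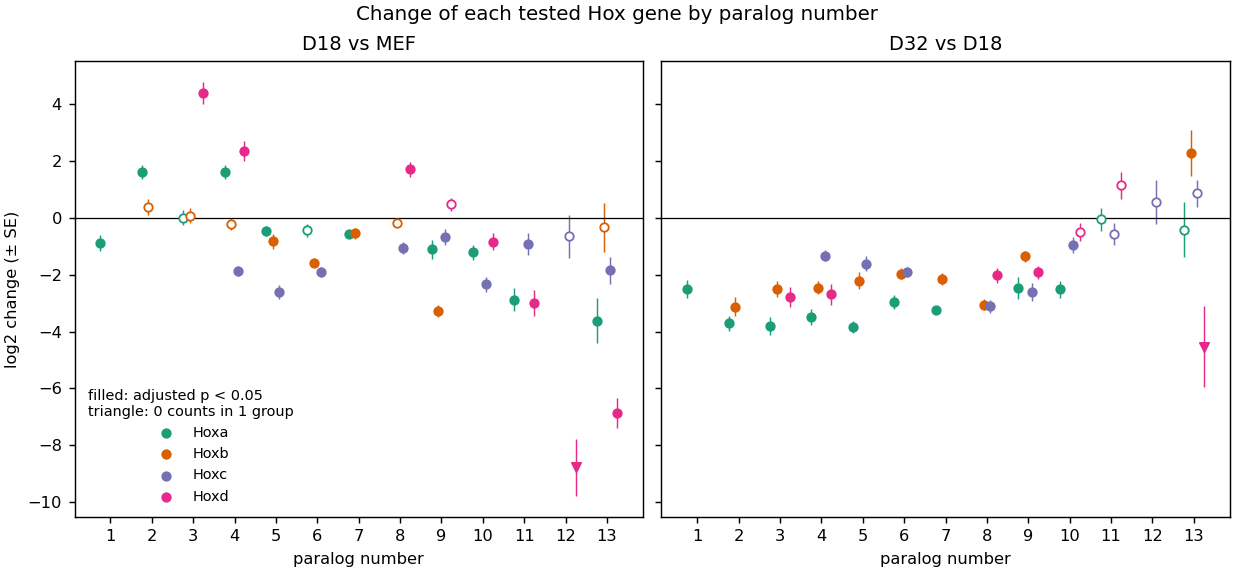
Log2 change with its SE of each tested Hox gene by paralog number, for D18 against MEF on the left and D32 against D18 on the right, with colours for clusters, filled symbols for an adjusted p under 0.05 and triangles, at fitted values that are no bound, where 1 of the groups had 0 counts. On the left the Hoxd genes with counts in both groups run from 4.39 in Hoxd3 to -6.87 in Hoxd13, and on the right the 21 tested genes with numbers 1 to 8 all lie below 0.

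Some genes did not move in 1 direction. Hoxa5 had 39.7, 39.3 and 35.5 CPM in MEF, 20.3, 14.5 and 15.4 CPM at D7 and 28.4, 20.7 and 33.2 CPM at D18. It fell at D7 against MEF and rose at D18 against D7 (log2 change 0.71, SE 0.18, adjusted p = 0.00322, edgeR). Hoxa7 did the same, with 33.3, 32.7 and 34.0 CPM in MEF, 16.4, 17.7 and 15.6 CPM at D7 and 22.6, 20.0 and 24.05 CPM at D18. Both were lower at D18 than in MEF. By contrast 5 genes fell in each of the 3 successive steps, and 9 passed only as a fall in the step from D18 to D32.

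The D18 libraries were less alike than those of other groups. The biological coefficient of variation over all genes was 0.250 at D18, 0.218 in P-RPE, 0.214 at D32, 0.158 at D7 and 0.0426 in MEF. The library of D18 replicate 1 had the lowest share of paralogs 9 to 13, 14.4%, against 20.8% in replicate 2 and 15.5% in replicate 3. Its levels of Hoxa9, Hoxa10 and Hoxc9 were 2.98, 4.58 and 4.30 CPM, with 8.16, 10.6 and 7.90 CPM in replicate 2 and 9.40, 10.0 and 8.86 CPM in replicate 3. The summed level of the fibroblast markers was 15510, 13480 and 3765 CPM in replicates 1, 2 and 3, and that of 8 glial markers 35570, 24080 and 33030 CPM. The glial markers were 93.8 to 96.3 CPM in MEF, and their part in the Hox changes was not tested.

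After the change to the second medium most Hox genes fell. Of the 37 tested genes 1 rose, 28 fell and 8 did not pass at D32 against D18, where 29.9% of all tested genes rose and 26.1% fell. The median log2 change was -2.21 over the Hox genes, or -2.16 with Hoxd13 at its bound, and 0.07 over all genes. All 6 tested genes with numbers 1 to 3 and all 15 with numbers 4 to 8 fell, with medians of -2.95 and -2.45. Of the 16 with numbers 9 to 13, 7 fell, 1 rose and 8 did not pass, with a median of -0.54. The summed level at D32 was 20.6% of that at D18.

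Hoxa5, which in the mouse is needed for lung and neck development, had 2.05, 1.69 and 2.04 CPM at D32, against 28.4, 20.7 and 33.2 CPM at D18. Hoxa3, which in the mouse is needed for the thymus and parathyroid, had 40, 73 and 36 counts at D32, against 431, 659 and 858 counts at D18. Hoxa2 had 0.576, 0.501 and 0.704 CPM at D32, against 6.04, 8.64 and 8.63 CPM at D18. None of these groups overlapped. These were log2 changes of -3.83 (SE 0.20) for Hoxa5, -3.81 (SE 0.31) for Hoxa3 and -3.70 (SE 0.27) for Hoxa2, with adjusted p of 3.17e-09, 1.71e-07 and 5.27e-08 in edgeR. Hoxd8, which had risen, fell as well, to 5.08, 4.75 and 4.54 CPM at D32, against 22.3, 20.4 and 15.8 CPM at D18 (log2 change -2.02, SE 0.27, adjusted p = 1.59e-05). The fall of Hoxd13 rests on 0 counts at D32, against 8 counts over the D18 libraries, at least 2.86-fold lower.

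Hoxb13, a gene of the tail, prostate and hindgut, was the only gene that rose. It had 0.901, 1.74 and 0.887 CPM at D32, against 0.337, 0.267 and 0.114 CPM at D18. The groups did not overlap. The log2 change was 2.28 (SE 0.80), with an adjusted p of 0.0255 in edgeR. In counts these were 36, 66 and 34 at D32, against 12, 10 and 4 at D18. The call was lost without D18 replicate 2 (adjusted p = 0.0552), without D18 replicate 3 (0.0797) and without D32 replicate 2 (0.0909). The D7 libraries were uneven, with 1.96, 0.409 and 0.235 CPM.

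Compared with the starting fibroblasts, 31 of the 37 tested genes fell at D32, 2 rose and 4 did not pass, where 35.6% of all tested genes rose and 24.6% fell. The Hox median of the log2 changes was -3.20 and that of all genes 0.26. All 11 Hoxa genes and 8 of 9 tested Hoxb genes fell. Hoxb9, with the highest level per kb in MEF, had 3.63, 2.48 and 2.27 CPM at D32, against 67.8, 71.6 and 67.5 CPM in MEF (log2 change -4.62, SE 0.21, adjusted p = 6.67e-10, edgeR). Hoxd13 had 0 counts in all D32 libraries, against 310, 312 and 320 counts in MEF, at least 349.9-fold lower. Hoxd12 likewise had 0 counts in all D32 libraries, against 58, 60 and 34 counts in MEF, at least 56.5-fold lower. In none of these 3 genes did the groups overlap.

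On day 32, 2 genes were above their MEF level and 4 did not pass. Hoxd3 had 1.23, 0.791 and 0.887 CPM at D32, against 0.335, 0.277 and 0.340 CPM in MEF, and rose without overlap (log2 change 1.60, SE 0.40, adjusted p = 0.00332, edgeR). Hoxb13, the other gene that rose, had 0.901, 1.74 and 0.887 CPM at D32, against 0.183, 0.608 and 0.113 CPM in MEF, with a log2 change of 1.94 (SE 0.78, adjusted p = 0.0441). That call was lost without any 1 of the D32 libraries (adjusted p of 0.0549, 0.145 and 0.0547 in the order of the replicates) and without MEF replicate 1 (0.130) or 3 (0.143). The 4 genes that did not pass were Hoxc12, Hoxc13, Hoxd4 and Hoxd8. Hoxc13 had 2.00, 1.93 and 1.46 CPM at D32, against 3.04, 3.76 and 3.91 CPM in MEF, and Hoxd8 had 5.08, 4.75 and 4.54 CPM at D32, against 5.57, 6.94 and 5.42 CPM in MEF. In both, each D32 library was below each MEF library, although the change did not pass. Hoxc12, from the 5′ end of Hoxc, had 1.78, 2.14 and 1.75 CPM at D32, against 2.25, 2.16 and 1.65 CPM in MEF, and the groups overlapped. At D18 it had 70, 70 and 0 counts, so 1 library of that group had no counts where the others had many. On day 32 the ranking per kb was headed by Hoxc12 with 1.83 CPM per kb, Hoxd8 with 1.75 and Hoxc6 with 1.43.

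**Figure D5:**
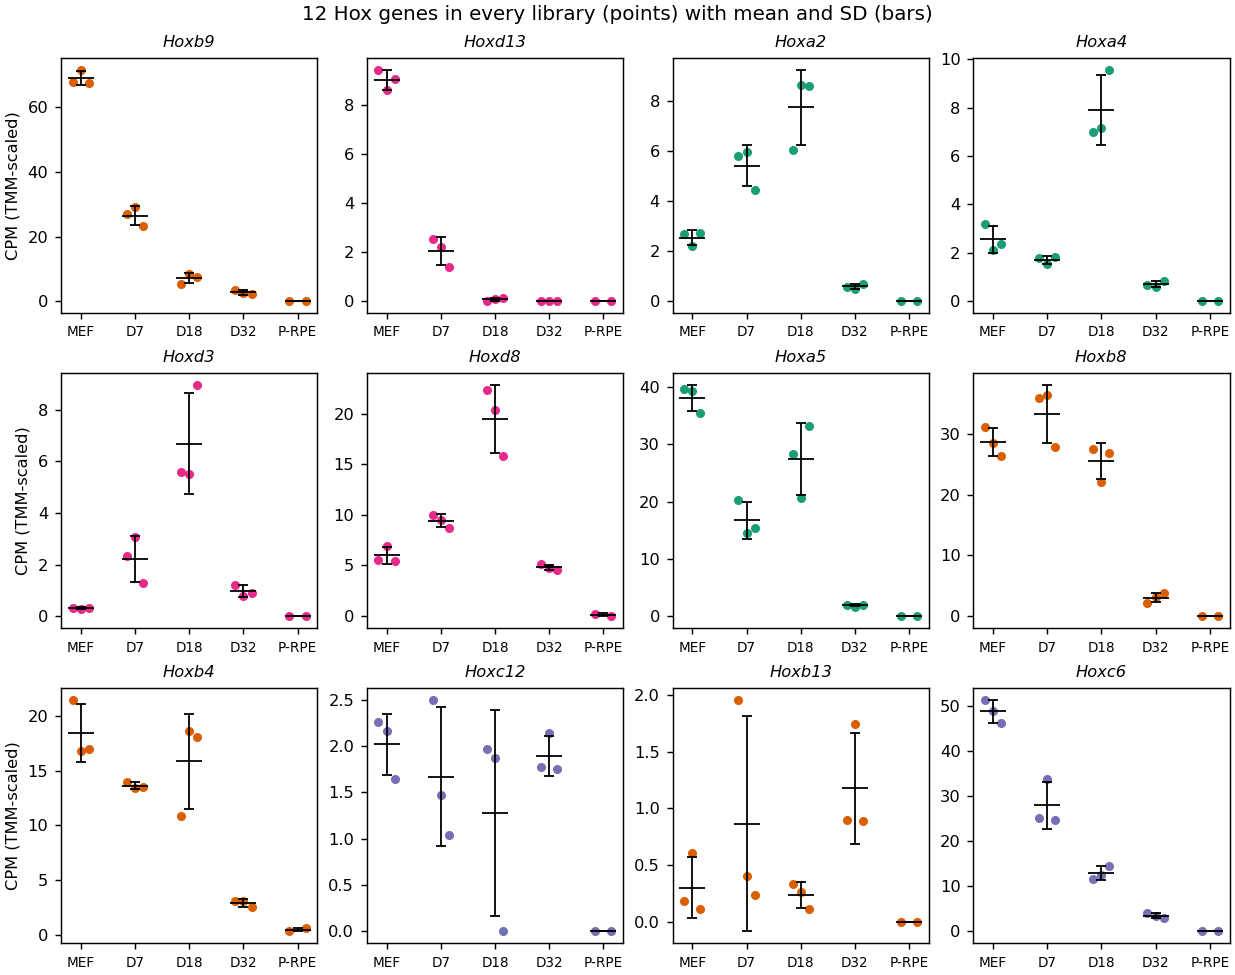
CPM of 12 Hox genes in every library of MEF, D7, D18, D32 and P-RPE, with points for libraries, bars for the mean and SD, and colours for the clusters. Hoxd3 and Hoxd8 are highest at D18, Hoxb9 and Hoxd13 are highest in MEF, and 1 D18 library of Hoxc12 lies at 0.

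Genes with the same paralog number got different calls in some comparisons. In group 8 Hoxb8 had 10.9 ± 0.901 CPM per kb in MEF, 12.7 ± 1.80 at D7, 9.68 ± 1.11 at D18 and 1.16 ± 0.296 at D32 (SD, n = 3 each). Hoxc8 had 12.16 ± 0.102 CPM per kb in MEF, 4.56 ± 1.11 at D7, 5.82 ± 1.08 at D18 and 0.672 ± 0.164 at D32. Hoxd8 had 2.18 ± 0.306 CPM per kb in MEF, 3.42 ± 0.237 at D7, 7.11 ± 1.22 at D18 and 1.75 ± 0.0993 at D32. The weakest of the 3 in MEF was thus the strongest at D32. At D18 against MEF Hoxd8 rose, Hoxc8 fell and Hoxb8 did not pass, and no test of the difference between them was made.

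In group 9, whose genes act in the trunk and limb, the D18 libraries had 2.76 ± 0.629 CPM per kb of Hoxb9, 2.89 ± 0.990 of Hoxc9, 3.72 ± 0.393 of Hoxd9 and 1.23 ± 0.611 of Hoxa9. MEF had 26.8 ± 0.879 CPM per kb of Hoxb9, 4.61 ± 0.338 of Hoxc9, 2.68 ± 0.238 of Hoxd9 and 2.64 ± 0.209 of Hoxa9 (SD, n = 3 each). Hoxb9 led in MEF, while at D18 the means of Hoxb9 and Hoxc9 differed by less than their SD. At D18 against MEF Hoxa9, Hoxb9 and Hoxc9 fell and Hoxd9 did not pass (log2 change 0.48). At D32 against D18 all 4 fell.

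In group 4 Hoxc4 had 1.99 ± 0.0157 CPM per kb at D18 and 7.27 ± 0.162 CPM per kb in MEF, and fell (log2 change -1.87). Hoxb4 had 6.18 ± 1.69 CPM per kb at D18 and 7.19 ± 1.03 CPM per kb in MEF, and did not pass. Hoxa4 had 4.96 ± 0.903 CPM per kb at D18 and 1.61 ± 0.353 CPM per kb in MEF, and rose (SD, n = 3 each). Hoxc4 and Hoxb4 thus stood level in MEF, and Hoxb4 and Hoxa4 led at D18. In group 13 the D32 libraries had 0.730 ± 0.119 CPM per kb of Hoxc13, 0.533 ± 0.222 of Hoxb13, 0.0273 ± 0.0308 of Hoxa13 and 0 of Hoxd13. Hoxd13 had been the strongest of this group in MEF, with 3.64 ± 0.164 CPM per kb.

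The D32 libraries held RNA of marker genes for more than 1 kind of cell. Of all tested genes 29.9% were higher and 26.1% lower at D32 against D18, and 35.6% were higher and 24.6% lower at D32 against MEF. The summed level of endothelial markers was 230.1 to 302.7 CPM at D32, against 5.64 to 14.4 CPM at D18, with all 10 markers higher. MEF already held 97.1 to 111.7 CPM of them, and against MEF 8 of 10 were higher at D32 and 1 was lower. The summed level of macrophage markers was 160.8 to 277.9 CPM at D32, against 11.1 to 41.2 CPM at D18, with 9 of 10 higher. In MEF it was 68.8 to 77.6 CPM, and against MEF 7 of 10 were higher at D32 and 3 did not pass. Red cell markers stood at 102.5 to 203.9 CPM at D32, against 0.112 to 0.453 CPM at D18. Rod photoreceptor markers stood at 6.81 to 53.1 CPM at D32, against 4.19 to 4.87 CPM at D18, with 8 of 9 higher. The spinal and ventral neural progenitor markers were at 79.3 to 91.8 CPM at D32, against 498.1 to 644.3 CPM at D18, with 9 of 10 lower, and the glial markers at 1979 to 2155 CPM at D32, against 24080 to 35570 CPM at D18. In P-RPE the endothelial, macrophage, red cell and rod photoreceptor sums were all higher than at D32. The glial sum was lower there, and the spinal and ventral progenitor sums overlapped. Where the RNA of these markers came from, and their part in the Hox changes, was not tested.

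In primary pigment epithelium Hox RNA was close to absent. The 39 genes together had 26 and 23 counts in the P-RPE libraries, against 16916, 18829 and 17509 counts in the MEF libraries. For 34 of the 39 genes the count was 0 in both P-RPE libraries, and none reached 1 CPM. Hoxb4, a gene of the neck, supplied most of what was there, with 12 and 21 counts, and the rest was Hoxd8 with 8 and 0, Hoxb3 with 4 and 0, Hoxc6 with 2 and 0 and Hoxd9 with 0 and 2. All 37 tested genes fell in P-RPE against MEF, where 39.3% of all tested genes rose and 31.4% fell. Hoxb9 had 0 and 0 counts in P-RPE, against 2227, 2589 and 2382 counts in MEF, at least 1681-fold lower. With 0 counts in P-RPE as well, Hoxa5 was at least 928.8-fold lower than in MEF and Hoxc8 at least 838.6-fold. The median log2 change was -10.64 as fitted and -7.54 with the 32 genes at 0 counts set to their bound, against 0.18 over all genes.

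The D32 libraries, which held RNA of marker genes for more than 1 kind of cell, had more Hox RNA than those of primary pigment epithelium. Of the 37 tested genes 34 were higher at D32 than in P-RPE, 0 were lower and 3 did not pass, where 27.1% of all tested genes were higher and 26.8% lower. Between 21 and 23 genes had at least 1 CPM in each D32 library, and 0 genes in either P-RPE library. Hoxb8 had 90, 118 and 146 counts at D32, against 0 and 0 counts in P-RPE, at least 74.2-fold higher. Hoxb9 had 145, 94 and 87 counts at D32, against 0 and 0 counts in P-RPE, at least 68.3-fold higher. Hoxb6 had 97, 90 and 110 counts at D32, against 0 and 0 counts in P-RPE, at least 62.3-fold higher. In each of these genes all D32 libraries were above both P-RPE libraries.

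Where P-RPE had counts, the difference could be measured. Hoxb4 had 3.10, 3.11 and 2.48 CPM at D32, against 0.336 and 0.563 CPM in P-RPE, without overlap (log2 change 2.68, SE 0.31, adjusted p = 4.47e-06, edgeR). The ratio of D32 to P-RPE was 126.1 for Hoxc6, with an exact 95% counting interval of 34.7 to 1045, and 76.4 for Hoxd9, with an interval of 20.9 to 634.5. The 3 genes that did not pass were Hoxa13, with 8 counts at D32 and 0 in P-RPE, and Hoxd12 and Hoxd13, with 0 counts in both groups. As fitted, the median log2 change was 8.19, and it was 4.88 with the 30 genes at 0 counts in P-RPE set to their bound, against 0.02 over all genes. While 27.1% of all tested genes were higher at D32 than in P-RPE, all 10 fibroblast markers were. They summed to 17530 to 26810 CPM at D32, against 1042 to 1336 CPM in P-RPE. Their part in the Hox difference was not tested.

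Non-coding RNAs of the clusters, from a list of 18 of which 17 were in the table and 11 were tested, moved in both directions. At D18 against MEF 6 rose, 3 fell and 2 did not pass, where 37.4% of all tested genes rose and 32.7% fell. Hoxaas2, which overlaps Hoxa3 on the other strand, had 13.5 ± 0.826 CPM at D18 and 2.18 ± 0.263 CPM in MEF (SD, n = 3 each; log2 change 2.62, SE 0.26, adjusted p = 4.63e-07, edgeR). Haglr, which overlaps Hoxd3, had 2.06 ± 0.163 CPM at D18 and 0.224 ± 0.129 CPM in MEF (SD, n = 3 each; log2 change 3.20, SE 0.47, adjusted p = 2.60e-05). Hotairm1, from the 3′ end of the Hoxa cluster, had 3.25 ± 0.513 CPM at D18 and 1.19 ± 0.122 CPM in MEF. Hoxd3os1, which overlaps both Hoxd3 and Hoxd4, also rose (log2 change 2.12, SE 0.42). At D32 against D18 0 rose, 7 fell and 4 did not pass, with 29.9% of all tested genes higher and 26.1% lower. Among those that fell were Hoxaas2 at 0.672 ± 0.227 CPM at D32 and Hotairm1 at 0.473 ± 0.175 CPM at D32. In P-RPE 15 of the 17 had 0 counts.

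Genes that flank the clusters moved in both directions. Of 12 tested, 5 rose, 5 fell and 2 did not pass at D18 against MEF, where 37.4% of all tested genes rose and 32.7% fell. Skap2, which lies beyond the 3′ end of the Hoxa cluster, had 131.3 ± 13.4 CPM at D18 and 32.9 ± 2.27 CPM in MEF (SD, n = 3 each; log2 change 2.00, SE 0.12, adjusted p = 1.52e-09, edgeR). Ttll6, which lies beyond Hoxb13 at the other end of its cluster, had 17.6 ± 5.24 CPM at D18 and 0.262 ± 0.301 CPM in MEF (log2 change 6.03, SE 0.54). Lnpk, which lies beyond Hoxd13, had 6.15 ± 1.59 CPM at D18 and 22.3 ± 1.41 CPM in MEF (log2 change -1.86, SE 0.24). Skap1, which lies beyond the 3′ end of Hoxb, also fell, and the named neighbours are examples of a list whose counts lie near those of all genes.

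Hox proteins bind DNA with cofactors of the TALE class, the Pbx, Meis and Pknox homeodomain proteins. Of the 9 cofactor genes 4 rose, 4 fell and 1 did not pass at D32 against D18, where 29.9% of all tested genes rose and 26.1% fell. Pbx3 had 14.6 ± 1.42 CPM at D32 and 9.59 ± 1.09 CPM at D18 (SD, n = 3 each), and rose (log2 change 0.61, SE 0.15, adjusted p = 0.00239, edgeR). Meis1 had 16.4 ± 3.56 CPM at D32 and 52.4 ± 7.50 CPM at D18, and fell (log2 change -1.68, SE 0.16, adjusted p = 5.62e-07). Meis2 had 15.5 ± 1.15 CPM at D32 and 40.7 ± 3.06 CPM at D18, and fell (log2 change -1.39, SE 0.10). In P-RPE, where Hox RNA was close to 0, the 9 cofactors summed to 275.2 to 291.7 CPM.

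Polycomb complexes keep Hox clusters silent and trithorax-type complexes with MLL proteins keep them active. At D18 against MEF 8 of 21 Polycomb genes rose, 11 fell and 2 did not pass, where 37.4% of all tested genes rose and 32.7% fell. Ezh2, the main H3K27 methyltransferase of dividing cells, had 9.26 ± 0.691 CPM at D18 and 50.9 ± 2.57 CPM in MEF (SD, n = 3 each; log2 change -2.46, SE 0.14, adjusted p = 8.53e-10, edgeR). Cbx7, a reader of that mark, had 49.6 ± 3.22 CPM at D18 and 2.66 ± 0.0729 CPM in MEF (log2 change 4.22, SE 0.15, adjusted p = 6.74e-12). Of 10 genes of the activating complexes 0 rose, 7 fell and 3 did not pass, the largest fall being that of Ash2l (log2 change -0.86, SE 0.08). RNA levels of these genes do not measure marks on the Hox clusters.

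Retinoic acid, present in the second medium, is known to switch on 3′ Hox genes in the embryo. Of 16 genes for its receptors, metabolism and feedback, 9 rose, 3 fell and 4 did not pass at D32 against D18. Over all tested genes 29.9% rose and 26.1% fell. In that comparison all 6 tested Hox genes with numbers 1 to 3 fell, as did all 15 with numbers 4 to 8. The part of retinoic acid in the Hox changes was not tested. Cyp26a1, which breaks retinoic acid down, had 6.43 ± 1.26 CPM at D32 and 0.161 ± 0.232 CPM at D18 (SD, n = 3 each; log2 change 5.26, SE 0.73, adjusted p = 2.84e-05, edgeR). Stra6, a receptor that takes up retinol and is also an abundant gene of pigment epithelium, had 236.6 ± 72.2 CPM at D32 and 1.43 ± 1.02 CPM at D18. Rarb had 15.8 ± 2.75 CPM at D32 and 6.04 ± 1.60 CPM at D18 (log2 change 1.39, SE 0.27).

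Several transcription factors of the head, which are expressed in front of the Hox domain, rose over the same step. Of 11 tested, 7 rose, 2 fell and 2 did not pass at D32 against D18, with the same 29.9% and 26.1% over all genes. Otx2, a master regulator of pigment epithelium, had 73.0 ± 26.5 CPM at D32 and 0 counts at D18. Six3, a factor of the forebrain and eye, also rose (log2 change 6.42, SE 0.43). En2 and Gbx2, factors of the midbrain and hindbrain border, were those that fell, to 1.84 ± 0.411 and 1.47 ± 0.171 CPM at D32, against 42.8 ± 7.16 and 5.44 ± 1.78 CPM at D18. All 10 limb factors fell at D18 against MEF, where 32.7% of all tested genes fell, as did 13 of the 16 Hox genes with numbers 9 to 13. Among them Pitx1, a hindlimb factor, had 0.312 ± 0.123 CPM at D18 and 19.8 ± 2.62 CPM in MEF (log2 change -5.96, SE 0.41, adjusted p = 5.80e-09, edgeR).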

How the data were processed

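The mouse table was deposited as raw counts, with 1 value per gene symbol and library, per the file headers. Tools named in the submitters' processing notes are STAR 2.7.11a, Subread with featureCounts, limma 3.58.1 and edgeR 4.0.16, with the builds mm10, GRCm38 and GRCh38. Strand, mate handling and multiply mapped reads are not given in the sources used here. In each library 68.1% to 75.6% of counts from 1 to 20 were even, so counting intervals and floors, which cover counting error only, may be too narrow.

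The model was fitted in R 4.3.3 with edgeR 4.0.16: trimmed mean of M values scaling, filterByExpr by group (20562 genes kept), and a robust quasi-likelihood fit of 5 group means to all 14 libraries. Changes with a Benjamini-Hochberg adjusted p under 0.05 over all tested genes were called. Hoxb1 and Hoxd1 failed the filter. A group with 0 counts gives a bound against 3 counts over the group. Lengths and coordinates come from GENCODE vM21 (GRCm38), which matched 53292 symbols (96.4%). Named are, for each comparison, the 3 largest called changes each way with at least 1 CPM in the higher group; other genes were chosen after their values were seen. The members, lists and tests were chosen with earlier results of these data known. A table with 10 human columns was not used. Alternatives included DESeq2 1.42.0 and limma-voom. The fit was tested on simulated data. Results for a few genes are not reported here.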

Additional observations from a re-analysis of the deposited data

How the results depend on the processing

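The numbers of Hox genes called, both directions together, were within 1.5 times of those reported under every alternative run: other size factors, library totals alone, no filter, a minimum mean of 1 CPM, DESeq2, limma-voom, 2 groups alone, the replicate number as a block, each library left out, and counts halved, the last chosen after seeing the data. Leaving out 1 library each gave 18 to 20 calls for D7 against MEF, 14 to 16 for D18 against D7, 28 to 30 for D32 against D18, 23 to 28 for D18 against MEF, 32 to 33 for D32 against MEF, 34 to 35 for D32 against P-RPE and 36 to 37 for P-RPE against MEF. The replicate numbers did not pair libraries: over 26 same-numbered pairs, correlations of the deviations ran from -0.097 to 0.095. With the replicate block the calls numbered 19, 14, 29, 27, 34, 34 and 37 in that order. Of the values for single genes and sums, 582 were unchanged in direction and call or moved by less than the spread, 23 sums or means moved by more, 0 reversed and 9 lost their call, all of them Hoxb13. With RLE size factors Hoxb13 at D32 against MEF had a log2 change of 1.88 and an adjusted p of 0.0504 in edgeR. The cause was not tested. By direction, library totals alone gave 5 higher and 14 lower at D7 against MEF, where 3 and 17 are reported, and 4 higher and 14 lower at D18 against D7, where 5 and 9 are reported. With library totals alone the median of all genes at D7 against MEF was 0.36, where it was 0.04 in the reported fit. Depth limits Hoxa13, Hoxb13, Hoxd1, Hoxd12 and all genes in P-RPE.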
